A study of Mus musculus with 4 samples.

Results

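Clusters of narrow HTATSF1 peaks are places where chromatin immunoprecipitation followed by sequencing (ChIP-seq) gave 2 or more separate peaks side by side. They were taken from the replicate 1 peak list on 17 autosomes, leaving out chromosomes 8 and 11 and chromosome 7 up to 36 Mb. Peaks with gaps under 1 kb were joined, and a joined region was kept when it held 2 or more peaks, all under 1000 bp wide, of which at least 1 overlapped a replicate 2 peak by 1 bp or more. This gave 1208 clusters with 2628 member peaks, out of 19489 replicate 1 peaks in all and 15386 on the chromosomes kept (17.1%). The replicate 1 positions and widths and that single overlap chose the members, so these values are given as a description.

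The cells were mouse embryonic stem cells, the cultured pluripotent cells of the early embryo. They came from tatsf1 flox/flox CreERT2 mice, whose Htatsf1 alleles are floxed and which carry CreERT2, a Cre recombinase made active by tamoxifen. The cells received no treatment. Every library shares this genotype and the growth on mouse embryonic fibroblast feeders, so feeder chromatin may be present in an amount that these lists do not give. The series holds 2 libraries made with a rabbit antibody against a mouse HTATSF1 peptide and 2 input libraries made without antibody. The inputs were not analysed here, and nothing in the labels says that replicates came from separate cultures. Sequencing depth is unknown. All positions are in mm9, counted from 1, and since no mm9 annotation or genome was used here, genes, promoters, cell type markers and sequences are not given for them.

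HTATSF1, named for its discovery as a factor of the Tat protein of HIV, binds RNA in the nucleus. It is known to associate with the U2 small nuclear ribonucleoprotein, the part of the spliceosome that recognises the branch point of an intron, and has also been described as a cofactor of transcription elongation. A protein of this kind can be crosslinked to chromatin through nascent RNA or through other proteins, so a ChIP-seq peak marks where it was near DNA and not necessarily a DNA site it reads. A peak is an interval in which reads exceeded the caller's threshold, and a narrow cluster is a stretch in which that threshold was crossed more than once.

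Most clusters were pairs. There were 1030 clusters of 2 peaks (85.3%), 151 of 3 peaks, 21 of 4 peaks, 5 of 5 peaks and 1 of 6 peaks. The median span from the first to the last base was 1025 bp for pairs, 1645 bp for clusters of 3 and 2184 bp for clusters of 4. Members covered a median of 86.6% of the span (quartiles 67.9 and 95.6%, lowest 23.0%), so in most clusters they took up more of the span than the gaps did. The rule allowed only gaps under 1 kb, which limits how low this share can fall. Member peaks had a median width of 384 bp (quartiles 287 and 527 bp), and isolated replicate 1 peaks that overlapped a replicate 2 peak, 5116 on the same chromosomes, had a median width of 504 bp. The members of a cluster together covered a median of 872.5 bp. The score is the authors' value for each peak, whose meaning is not stated and which was compared in size within a list only. Its median over members was 89.1 (range 50.0 to 586.6). By cluster, the highest score had a median of 132.2 and the lowest a median of 65.9, whereas the median score of isolated shared peaks was 124.7. Every isolated shared peak overlapped replicate 2 by choice and had no width limit (widest 2076 bp). Of the 2628 members, 887 overlapped no replicate 2 peak. The differences in width and score between members and isolated shared peaks therefore follow at least in part from how each was chosen.

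Values at the limits of the rule were close together on either side. The widest member was 987 bp, and the narrowest peak that kept a multi-peak region out was 1005 bp. The largest gap inside a cluster was 992 bp. The smallest gap too long to be joined, between any successive replicate 1 peaks on the chromosomes kept, was 1000 bp. The weakest contact with replicate 2 that admitted a cluster was 7 bp. A further 681 narrow multi-peak regions met no replicate 2 peak. The nearest replicate 2 peak to them was at 6 bp, the median distance was 22584 bp, and 44 of them had one within 1 kb. Another 29 multi-peak regions held a peak of 1000 bp or wider and were left out for that.

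The rule allowed only gaps under 1 kb between neighbouring members, and most gaps were far shorter than that. The 1420 gaps had a median of 107.5 bp (quartiles 33 and 372 bp) and began at 1 bp. Gaps under 100 bp made up 682 (48.0%, exact 95% binomial interval 45.4 to 50.7%), and gaps under 10 bp 146 (10.3%, 8.75 to 11.98%). Each later bin of 100 bp held between 43 and 189. Centres of neighbouring members were a median of 568 bp apart (quartiles 435 and 819 bp, lowest 190.5 bp). Short gaps were not a feature of the members alone. In the narrow multi-peak regions that met no replicate 2 peak, 46.4% of 758 gaps were under 100 bp, with a median of 127 bp. Among replicate 2 gaps under 1 kb on the same chromosomes, 40.7% of 1254 were under 100 bp, with a median of 145 bp. Between 1 and 2 kb, replicate 1 had 436 gaps, from 28 to 69 in each bin of 100 bp, so gaps were most frequent at the short end. By cluster size the median gap was 102 bp in pairs, 117 bp in clusters of 3 and 181.5 bp in clusters of 4 or more.

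**Figure D1:**
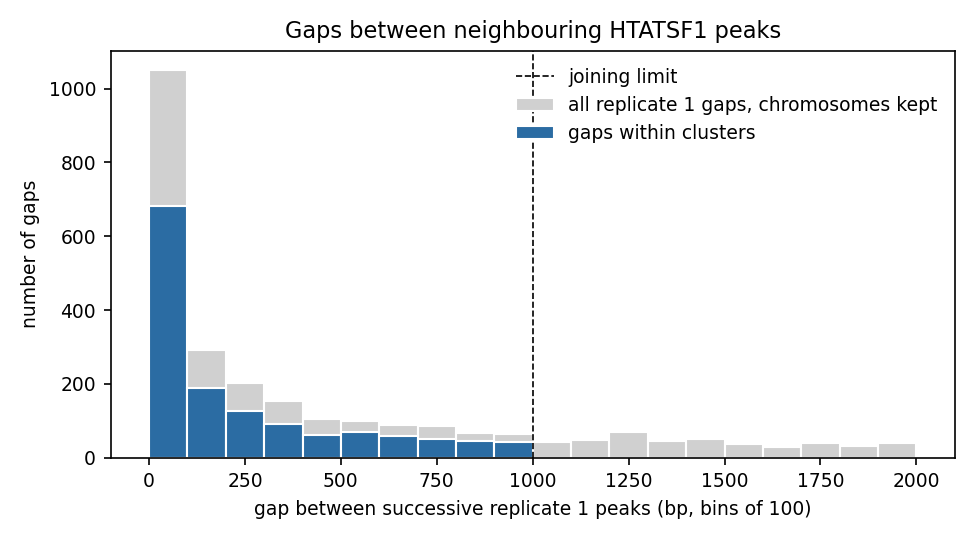
Number of gaps (y axis) between successive replicate 1 peaks by their length in bp (x axis, bins of 100 bp), for gaps within clusters (blue) and, behind them, all gaps on the chromosomes kept (grey). The first bin holds 682 of the 1420 gaps within clusters, and the dashed line is the 1000 bp limit of the rule.

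The clusters with the highest scores in both lists paired a strong peak with a weak one. They were ranked by their highest replicate 1 score and the highest replicate 2 score they met. A strong peak in each list is therefore given by the choice. A weak member was usual, since the lowest score had a median of 65.9 over all clusters. Of the 8 clusters with the highest mean percentile of score, 7 had their only replicate 2 peak on the stronger member. At chr1:88383678-88385687, the first peak scored 586.6, the highest of any member, and overlapped a replicate 2 peak of score 315.4. The second peak lay across a gap of 853 bp, scored 59.3 and had no partner. At chr19:45857131-45858493 a weak peak of 67.6 lay 141 bp before a strong one of 481.7, whose partner scored 340.8. At chr15:79963304-79964741 the scores were 418.2 and 52.7 and the gap was 372 bp. Its replicate 2 peak scored 494.7, the highest that any cluster met. In these 3 clusters the weak member had no replicate 2 peak.

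The other highest-ranked clusters had the same form. Scores were 494.0 and 68.5 at chr9:44689080-44690479, with a partner of 295.5 on the first. They were 379.8 and 54.7 at chr17:34065956-34067962, with a partner of 270.5 on the first. The weak members there lay 183 and 719 bp from the strong ones. At chr10:126415153-126417032 the scores were 428.6 and 60.7 across a gap of 684 bp, and at chr2:92023433-92025402 they were 342.4 and 81.4 across 775 bp. Their partners scored 242.7 and 305.1. The exception was chr2:157029570-157030846, where the members scored 62.7 and 352.9 and lay 26 bp apart. There a single replicate 2 peak of 834 bp and score 259.5 crossed the gap and touched both.

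Replicate 2 showed 2 or more peaks in a minority of the clusters. Over member peaks, 1741 of 2628 (66.2%) overlapped a replicate 2 peak, where the share over all replicate 1 peaks was 45.6% and over those of the chromosomes kept 44.8%. The rule required 1 overlap per cluster, and without that requirement the share over peaks of narrow multi-peak regions was 42.8% of 4067. In 883 clusters a single replicate 2 peak was met, in 293 there were 2, in 31 there were 3 and in 1 there were 4. Clusters that met at least 2 came to 325 (26.9%, exact 95% binomial interval 24.4 to 29.5%). Over all 1889 narrow multi-peak regions, including those that met none, the share was 17.2%. Isolated shared peaks met 2 or more replicate 2 peaks in 7.06% of cases. A single peak offers less length for such meetings than a cluster, and no test of the difference was made.

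The clusters fell into 4 kinds by what replicate 2 showed. In 669 (55.4%, 52.5 to 58.2%) 1 replicate 2 peak lay on 1 member and the rest had none. In 288 (23.8%, 21.5 to 26.3%) at least 2 members could each be assigned a different replicate 2 peak, which might touch another member as well. In 214 (17.7%, 15.6 to 20.0%) the only replicate 2 peak met stretched across 2 or more members. The cluster was then a single peak in replicate 2. In the other 37 (3.06%) several replicate 2 peaks were met that could not be assigned to separate members. Every member could be assigned a different replicate 2 peak in 215 clusters (17.8%), which were 210 pairs and 5 clusters of 3. In 165 of these, each member met a single replicate 2 peak that met no other member.

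Which kind a pair belonged to went with its gap. Of 345 pairs less than 50 bp apart, 140 (40.6%, 35.4 to 46.0%) were crossed by the only replicate 2 peak they met. Of 161 pairs 50 to 99 bp apart, 36 (22.4%) were, of 138 pairs 100 to 199 bp apart 12 (8.70%), of 206 pairs 200 to 499 bp apart 3 (1.46%), and of 180 pairs 500 bp or more apart 0. A wider gap is harder for a peak to cross, so this order follows in part from geometry. Pairs with a different replicate 2 peak assignable to each member made up 18.8% (14.9 to 23.4%) of the closest group. They made up 25% (18.9 to 32.0%) of the widest, and the intervals overlap. The share with any replicate 2 overlap, over all narrow pairs, was 64.5% in the closest and 62.5% in the widest group. Where the only replicate 2 peak crossed the pair, it was wide for that list, with a median of 449 bp. The median was 328 bp where 1 member alone was met and 332 bp over the partners of isolated peaks. A peak must be longer than the gap to cross it, so this width also follows in part from geometry.

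**Figure D2:**
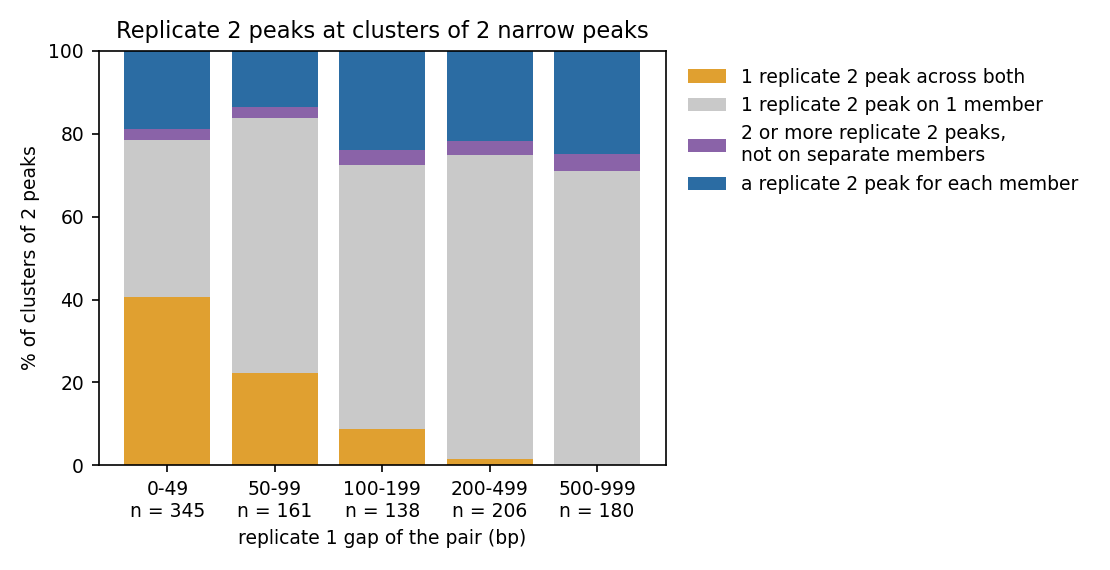
Percentage of clusters of 2 peaks (y axis) by what replicate 2 shows at them, for pairs grouped by the replicate 1 gap in bp (x axis, with the number of pairs). The share crossed by the only replicate 2 peak met (orange) is 40.6% in the closest pairs and 0 at 500 bp or more. The share with a different peak assignable to each member (blue) stays between 13.7% and 25%.

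Pairs with both members matched 1 to 1 had gaps from 1 to 973 bp. The closest of them were at chr9:21602352-21603605 and chr14:67627076-67628136, each with 1 base between the peaks, followed by chr15:83081385-83082483 with 2 bases. In replicate 2 the same pairs were 152, 233 and 311 bp apart. They were picked for the smallest replicate 1 gaps, so wider gaps in replicate 2 follow at least in part from that choice. At the first, the replicate 1 scores were 59.9 and 147.8 and the replicate 2 scores 128.2 and 100.9. At the second they were 128.7 and 54.7, then 67.8 and 74.2. At the third they were 77.1 and 208.9, then 128.1 and 61.5. The stronger member in replicate 1 was the weaker in replicate 2 in all 3 of these closest pairs. Over all such pairs with gaps below 100 bp, the order was kept in 29 of 54 (53.7%).

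The most widely spaced pairs with both members matched 1 to 1 were at chr3:95085094-95087398 (gap 973 bp), chr9:108728110-108729632 (925 bp) and chr2:30120634-30122415 (888 bp). Their gaps in replicate 2 were 830, 834 and 1348 bp. Scores at the first were 303.8 and 134.8, and its partners scored 86.7 and 72.0. At the second they were 73.6 and 110.1, with partners of 99.6 and 88.7. At the third they were 76.1 and 77.0, with partners of 67.3 and 70.2. The order of scores was the same in both lists at the first and the third of these.

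The largest clusters were not the strongest. The 6 clusters with the most members had highest scores of 83.9 to 237.1, and the median highest score was 116.4 for clusters of 4, against 140.5 for clusters of 3 and 130.8 for pairs. The 1 cluster of 6 peaks, at chr19:23207532-23211405, spanned 3874 bp with gaps of 70 to 428 bp. Its scores in order were 51.5, 112.2, 52.6, 71.1, 87.2 and 120.6. Replicate 2 met it once, on the second member, with a score of 65.7, and its highest-scored member had no partner. At chr4:133572782-133575483 the 5 scores were 88.7, 102.8, 82.3, 237.1 and 52.0, and the only partner (score 73.5) lay on the first member and not on the strongest. At both places most of the replicate 1 stretch had no counterpart in replicate 2.

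The other 4 clusters of 5 peaks had 2 replicate 2 peaks each. The longest cluster of all, chr19:7339227-7343612 (4386 bp), scored 50.1, 233.4, 122.5, 193.2 and 183.7, and its replicate 2 peaks of 119.8 and 105.4 lay on the members of scores 233.4 and 122.5. At chr6:108608575-108611760 the scores were 111.3, 103.8, 75.4, 74.4 and 53.1. A replicate 2 peak of 68.0 lay there on the first member and another of 67.2 crossed the members of scores 75.4 and 74.4. At chr15:98763779-98766246 the scores were 109.4, 92.8, 94.6, 60.1 and 92.2. Replicate 2 had a peak of 122.1 across the first and second members and one of 141.8 on the last. At chr12:77470387-77472630 the scores were nearly level, at 82.3, 74.1, 82.7, 61.4 and 83.9, and the partners of the first and second members scored 56.9 and 92.1. In none of the 27 clusters of 4 or more could every member be assigned a different replicate 2 peak. In 15 of them at least 2 members could.

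Clusters of 3 that recurred whole were rare, 5 of 151. The 3 with the highest scores were at chr4:133522964-133524618, chr2:157391930-157395129 and chr7:134168531-134171338. The first scored 318.4, 126.2 and 80.4 in replicate 1 and 68.1, 113.5 and 61.6 in replicate 2, so its strongest member in replicate 1 was not the strongest in replicate 2. The second scored 223.8, 54.9 and 68.5 and then 240.6, 97.7 and 90.0, and its first member led in both lists. The third scored 89.8, 95.6 and 184.6 and then 112.4, 101.5 and 124.0, with the last member leading in both. Their gaps were 36 and 248 bp, 936 and 959 bp, and 743 and 554 bp in replicate 1. In replicate 2 they were 88 and 61 bp, 749 and 970 bp, and 554 and 707 bp.

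**Figure D3:**
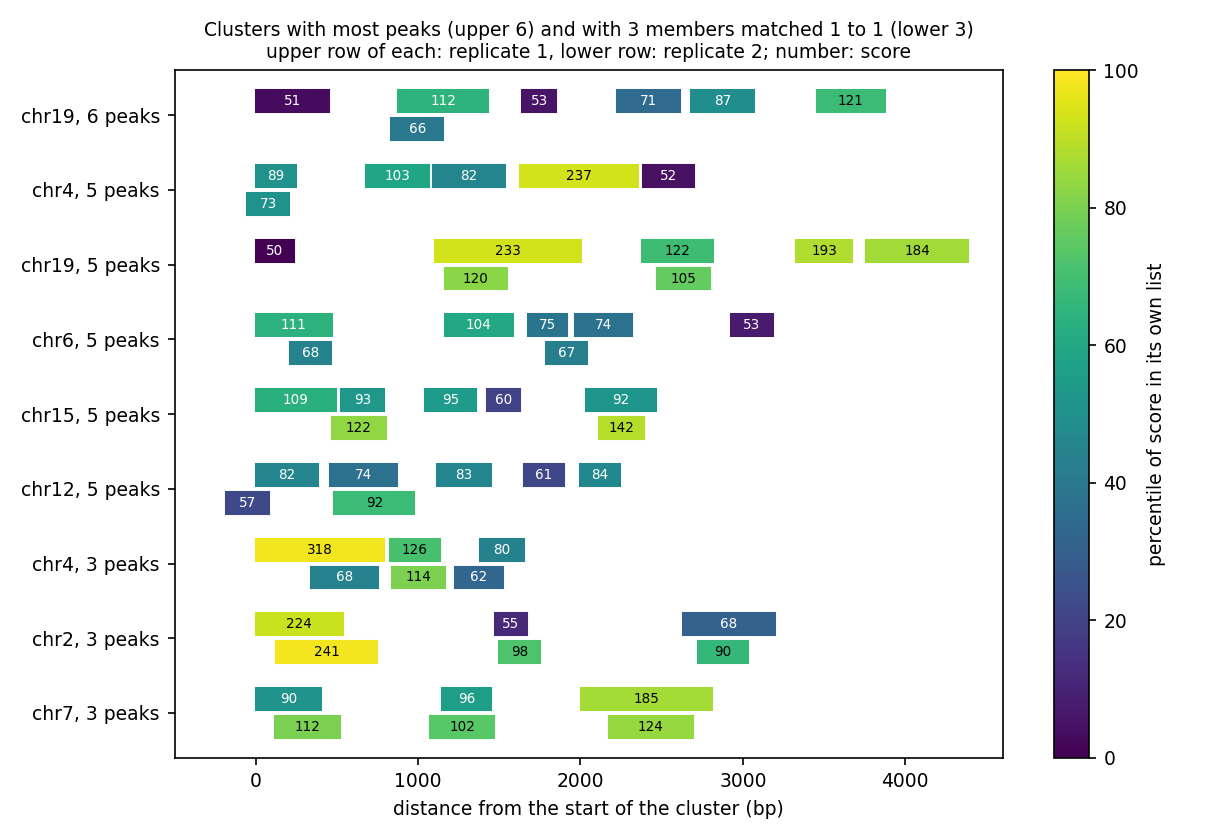
Peaks of 9 clusters by distance in bp from the cluster's first base (x axis): the 6 clusters with the most members, then the 3 highest-scored clusters of 3 with every member matched. In each, boxes in the upper row are replicate 1 peaks and boxes in the lower row the replicate 2 peaks that meet them, with the score printed and the colour giving its percentile in its own list; the 6 largest clusters meet 1 or 2 replicate 2 peaks each.

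Large clusters with a strong member could still have a single matched member. At chr4:46463507-46465571 the scores were 315.1, 55.9, 102.6 and 62.98, and the strongest met a replicate 2 peak of only 52.0. At chr15:36722004-36724369 the scores were 300.6, 197.1 and 73.8, and the first had a partner of 197.4. At chr5:137042034-137043678 they were 52.7, 57.6 and 296.4, and the last was met by 2 replicate 2 peaks of 78.3 and 76.1 that lay 49 bp apart. Here replicate 2 divided a peak that was whole in replicate 1.

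Scores within a cluster were uneven. The highest score was a median of 1.76 times the lowest (quartiles 1.32 and 2.54, largest 9.90). Among pairs, 229 (22.2%) had scores within 1.25-fold and 160 (15.5%) differed by 3-fold or more. The higher score lay at the lower coordinate in 507 of 1030 pairs (49.2%, exact 95% binomial interval 46.1 to 52.3%), so no side was preferred beyond counting error. In clusters of 3 the highest score was at the lower-coordinate end in 48, in the middle in 53 and at the higher-coordinate end in 50. The lowest score was in the middle in 46 of the 151. In 11 of the 27 clusters of 4 or more the highest score was at an end. Directions of transcription were not used, so these sides are those of the coordinates. The highest-scored member was also the widest in 984 clusters (81.5%), and the Spearman correlation of width and score over the 2628 members, given as a description, was 0.80. Gap and score ratio were nearly unrelated over the pairs (Spearman correlation -0.05, n = 1030 pairs from 1 library).

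The stronger member of a pair overlapped a replicate 2 peak in 892 of 1030 cases (86.6%, 84.4 to 88.6%) and the weaker in 539 (52.3%, 49.2 to 55.4%). In clusters of 3 the shares by score rank were 77.5%, 55.6% and 36.4%. The rule guarantees 1 overlap per cluster but not on which member. It left out clusters without any overlap, which raises all of these shares. The same 892 stronger and 539 weaker members are all that overlapped among the 1643 narrow pairs with or without an overlap. Where exactly 1 member overlapped, it was the highest-scored in 491 of 629 pairs (78.1%, 74.6 to 81.2%), in 44 of 67 clusters of 3 and in 5 of 10 larger ones. For pairs this share was 59.4% (50.5 to 67.8%) with scores within 1.25-fold, 76.7% at ratios of 1.5 to 2 and 98.4% (94.4 to 99.8%) at ratios of 3 or more, where it was 124 of 126.

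**Figure D4:**
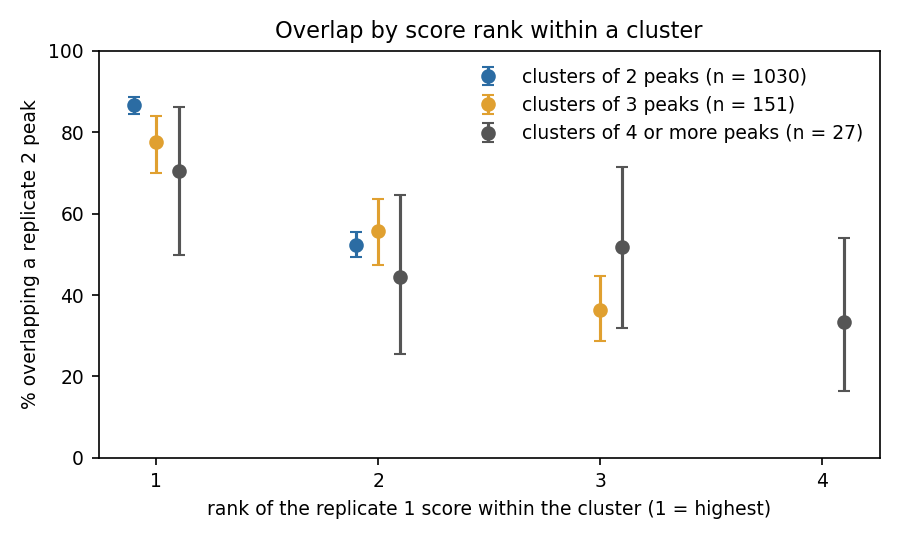
Percentage of member peaks that overlap a replicate 2 peak (y axis) by the rank of their replicate 1 score within the cluster (x axis, 1 is the highest), for clusters of 2, of 3, and of 4 or more peaks. Bars are exact 95% binomial intervals, which cover counting error only. Clusters without any overlap were left out by the rule, which raises all shares. In pairs the share is 86.6% for the stronger and 52.3% for the weaker member.

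The same dependence on score was seen in peaks that stand alone. To compare them without the overlap the rule requires, all 4067 peaks of narrow multi-peak regions were set beside the 11259 isolated peaks, of which 45.4% overlapped a replicate 2 peak. At scores of 50 to 60, 22.4% (19.7 to 25.3%) of the former and 20.8% (19.1 to 22.6%) of the latter overlapped. At 80 to 120 the shares were 45.3% and 43.9%, and above 200 they were 83.9% (79.1 to 87.9%) and 84.8% (82.7 to 86.7%). In each of the 5 score ranges the intervals overlapped. Over all scores the shares were 42.8% (41.3 to 44.3%) and 45.4% (44.5 to 46.4%), and those intervals do not overlap.

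Overlap of the weaker member of a pair was then read by whether the stronger member overlapped. Among all 1643 narrow pairs, with or without an overlap, the weaker member overlapped a replicate 2 peak in 401 of 892 pairs (45.0%, 41.7 to 48.3%) whose stronger member did, and in 138 of 751 (18.4%, 15.7 to 21.3%) whose stronger member did not. In 219 of the 401 (54.6%, 49.6 to 59.6%) the weaker member met no replicate 2 peak other than one that also met the stronger. The other 182 were 20.4% of the 892 pairs, and 27.0% (23.7 to 30.6%) of the 673 that remain when those 219 are left out. The weaker members had median scores of 68.2 and 61.0 in these groups, and the part of that score difference was not tested.

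In 160 pairs both members were matched 1 to 1, which means that each had a single partner and that this partner met no other peak, so spacing and score order could be read in both lists. Centres of the pair had a median distance of 721 bp in the first list and 719 bp in the second. Pair by pair, the distances differed by a median of 122.5 bp. In 125 pairs (78.1%) they were within 200 bp of each other, and the Spearman correlation was 0.87 (n = 160). Overlap of the partners itself keeps these distances alike. The empty gap was wider in replicate 2 in 112 of the 160 pairs, with a median of 373 bp against 197.5 bp. The rule limited only the replicate 1 gap, to under 1 kb, which favours a wider gap in replicate 2. Peaks were narrower there, the mean width of a pair having a median of 333.5 bp against 476 bp. In 146 pairs the replicate 2 gap was under 1 kb as well.

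The stronger member of these pairs was the stronger in replicate 2 in 98 of 160 (61.3%, exact 95% binomial interval 53.2 to 68.8%) and the weaker in 62. For comparison, neighbouring matched peaks 1 to 10 kb apart on the same chromosomes kept their order in 64.9% of 422 cases (60.2 to 69.5%), and pairs chosen by the same rule on the autosomal parts left out did in 20 of 33. The intervals overlap, that of the 33 pairs being wide (42.1 to 77.1%), and no test of a difference in order was made. Order was kept in 36 of 50 pairs (72.0%, 57.5 to 83.8%) with a replicate 1 ratio of 2 or more, in 12 of 26 at ratios of 1.5 to 2, in 26 of 41 at 1.25 to 1.5 and in 24 of 43 (55.8%, 39.9 to 70.9%) below that. By gap it was 29 of 54 (53.7%) below 100 bp and 28 of 41 (68.3%) at 500 bp or more. All of these intervals overlap each other. The log2 score ratios of the 2 lists had a Spearman correlation of 0.33 over the 160 pairs and of 0.38 over the 422 more distant neighbours. Across members matched 1 to 1 the correlation of scores was 0.37 (n = 1130), and across isolated peaks matched 1 to 1 it was 0.38 (n = 4755).

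**Figure D5:**
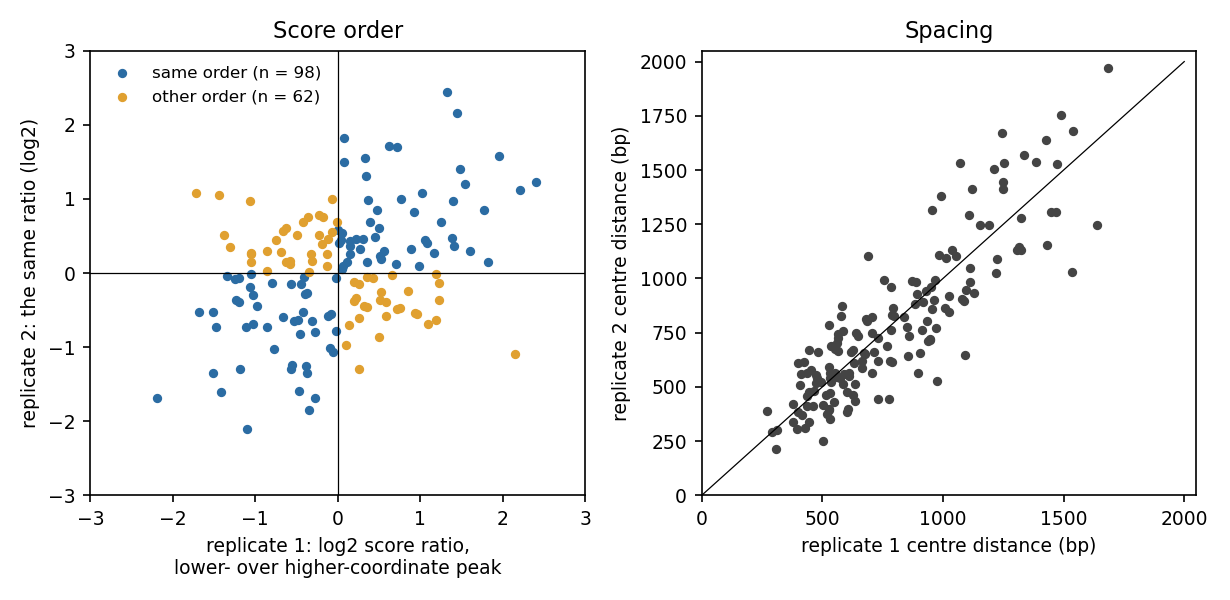
The 160 pairs in which both members are matched 1 to 1. Left, log2 ratio of the scores of the lower- over the higher-coordinate peak in replicate 1 (x axis) and replicate 2 (y axis), blue for the 98 pairs in the same order and orange for the other 62; right, distance between the peak centres in bp in each replicate, with the line of equality.

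Order was kept in the 3 pairs with the largest score ratios among those matched 1 to 1. At chr18:35974325-35975602 the members scored 335.9 and 63.5, a ratio of 5.29, and their partners 199.0 and 85.2. At chr2:167013896-167015955 they scored 487.3 and 105.2 and their partners 169.6 and 78.1. At chr19:11986067-11987271 they scored 61.1 and 279.8 and their partners 56.3 and 180.7. The gaps of these pairs were 68, 800 and 88 bp in replicate 1 and 266, 728 and 317 bp in replicate 2. The next pair by ratio, 4.43, at chr5:122499810-122500593, was named after its values were seen: it scored 226.7 and 51.2, and its order was reversed in replicate 2.

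Clusters built in replicate 2 lay mostly on isolated replicate 1 peaks, which were also the more numerous places to meet. The same rule, with the lists exchanged, gave 993 clusters with 2103 member peaks in replicate 2, of which 889 were pairs. Of these, 352 (35.4%) met a replicate 1 cluster, and 352 of the 1208 replicate 1 clusters (29.1%) met a replicate 2 cluster. Another 628 replicate 2 clusters (63.2%) lay on replicate 1 peaks that were isolated, nearly always (626) on a single one. Replicate 1 held 5116 isolated peaks that overlapped a replicate 2 peak, against the 1208 clusters. The shares of replicate 2 clusters are therefore not rates per replicate 1 place. In 361 of the 626 (57.7%) at least 2 members of the replicate 2 cluster overlapped that peak, and in the other 265 only 1 did. Those 361 were 7.06% of the isolated shared peaks.

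Clusters were spread over all 17 chromosomes. Chromosome 4 had the most, 125, and chromosome 18 the fewest, 30. Members made up 12.9% (10.1 to 16.3%) of the replicate 1 peaks on chromosome 18 and 23.2% (20.1 to 26.6%) on chromosome 19, the lowest and the highest share, and those intervals do not overlap. These chromosomes were picked as the extremes of 17, with no test. On chromosome 7 beyond 36 Mb it was 19.5% and on chromosome 9 14.1%. The median gap by chromosome ran from 77 bp on chromosome 1 to 179 bp on chromosome 19. The share of clusters that met 2 or more replicate 2 peaks ran from 15.8% on chromosome 14 (9 of 57) to 37.5% on chromosome 6 (21 of 56). The nearest other cluster was a median of 200836 bp away and at least 1073 bp. Within 10 kb of another cluster lay 46, and the clusters occupied 1095 windows of 100 kb, of which 89 held 2 and 11 held 3 or more. Most of these windows thus held 1 cluster. No comparison with the spacing of all peaks or with an even spread was made.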

How the data were processed

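Each of the 2 immunoprecipitated libraries, grouped by their titles, has a peak list as the authors deposited it, with positions and a score per peak. Per the submitters' processing notes, Bowtie, Picard 1.82 and bedtools were used with build mm9, whose roles and settings no source used here gives. Peak names start with MACS, a peak caller. The lowest scores are 50.01 and 50.00. A GRCm38 gene table was not used for positions, since 15 members lie past its last gene on their chromosome; the planned promoter and gene-body shares, and gene lists, were not run.

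The members and lists were chosen with earlier results of these data known. Members were matched to any replicate 2 peak by at least 1 bp, and 1-to-1 when neither peak met another. Shares have exact (Clopper-Pearson) 95% binomial intervals, which cover counting error only; peaks are not replicates, and with 2 libraries no test over samples was made. Named clusters follow a rule on scores, member number, gaps, score ratio and matches, which gave 29. Alternatives changed the joining gap, width limit, overlap, score limit, chromosomes and list. The code was tested on simulated lists. Python 3.11.15, numpy 2.4.6, pandas 2.3.3, scipy 1.17.1 and matplotlib 3.10.9 were used.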

Additional observations from a re-analysis of the deposited data

How the results depend on the processing

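Of 56 values under the alternatives fixed at the start, 40 stayed within 1.5 times the main count or within the 95% binomial interval of the main value. Joining at 500 bp gave a median gap of 74.5 bp and 68.1% of members overlapping a replicate 2 peak; joining at 2 kb gave 196 bp and 64.2%. An overlap of 50% of both peaks left 14.2% of clusters with 2 or more replicate 2 peaks and 52.1% of members overlapping, and the single matched member was the highest-scored in 70.9%. Keeping only peaks at or above the median score of their list, and so fewer peaks, left 229 clusters and 474 members, a median gap of 126 bp, 22.7% with 2 or more replicate 2 peaks, 68.6% of members overlapping and 71.3% with the highest-scored member matched. Clusters built in replicate 2 had a median gap of 144 bp, 81.7% of members overlapping and 70.6% with the highest-scored member matched. Fusing peaks less than 100 bp apart first, an alternative chosen after the gaps were seen, gave 638 clusters, 1340 members, a median gap of 347.5 bp and, for the same shares, 61.9% and 72.7%; the share with 2 or more replicate 2 peaks was 26.5% there. The share of matched clusters with the same highest-scored member was 60.6% over clusters of any size and stayed between 58.5% and 67.5% under every alternative run. Leaving out a replicate gives no value, since each measure needs both lists. No paired analysis was possible because inputs with the same replicate numbers were not analysed here. Depth is unknown, so a member without a partner cannot be read as unbound.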
